A study of Homo sapiens with 12 samples.

Results

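The genes of the membrane-bound stress sensors IRE1, ATF6 and the CREB3 family were followed in the RNA of human motor neuron cultures exposed to the organochlorine pesticide cis-chlordane. The 10 genes were chosen by name, with earlier results of these data known: ERN1, XBP1, ATF6, ATF6B, CREB3, CREB3L1, CREB3L2, CREB3L4, MBTPS1 and MBTPS2. All 10 were found among the 28278 gene symbols of the count table, and all 10 had enough counts to be tested in every comparison. The cultures came from WA09-Islet1-GFP. This is a line of human embryonic stem cells with a wild-type genotype in which GFP marks cells that express the motor neuron transcription factor Islet1. Control cultures received the solvent DMSO and treated cultures received cis-chlordane for 16 hours, at 10 µM by the sample labels and at a higher dose by the text of the study. The titles of all samples, treated ones included, open with the word untreated, and the groups follow the later word control or treated in the title, which the treatment field of every sample matches. Cells were then sorted by FACS into GFP-positive and GFP-negative fractions, which gave 4 groups of 3 libraries, and each replicate started from its own thaw of cells. Because 1 line was used, the results describe this line, and GFP-negative cells are all other cells of the culture rather than 1 cell type.

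The endoplasmic reticulum (ER) folds secreted and membrane proteins, and sensors in its membrane report when folding falls behind. IRE1, made from ERN1, is a kinase and ribonuclease that cuts a short intron out of XBP1 mRNA in the cytosol, after which the joined message is translated into the active transcription factor XBP1. ATF6 and the CREB3 family are transcription factors held in the membrane until they travel to the Golgi, where the site-1 protease (MBTPS1) and the site-2 protease (MBTPS2) cut them free. All of these steps act on RNA splicing, transport or proteolysis, so counts per gene give the supply of each sensor and not its activity.

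XBP1 lies on the minus strand of hg38 at chr22:28794555-28800597. The intron that IRE1 removes is 26 bases long. The annotation places it at chr22:28796128-28796153, in exon sequence of transcript XBP1-201, which keeps it, while transcript XBP1-202 is annotated without it. It is shown because it is the substrate that links ERN1 to XBP1, in lower case with the intron in capitals and 20 bases on either side.
XBP1 intron: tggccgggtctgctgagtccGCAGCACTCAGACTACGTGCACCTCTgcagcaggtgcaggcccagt
The same bases stand at both ends of the intron, and its borders can be shifted by 6 bases without changing the joined product. The capitals therefore show the annotated placement, which need not match the exact cut sites of IRE1. The counts were made per gene, so the spliced and unspliced forms cannot be told apart here.

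The promoters of the 10 genes, taken from RefSeq on GRCh38.p14 as 250 bases before to 50 bases after each start, were searched on both strands for 4 motifs of this pathway. These were ERSE (CCAAT, 9 bases of any kind, CCACG), ERSE-II (ATTGG, 1 base of any kind, CCACG), UPRE (TGACGTGG) and CRE (TGACGTCA). All 10 genes were matched, with 12 promoters between them. Only the promoter of XBP1 held an ERSE, a motif that 0.077% of 35116 promoters carry, at chr22:28800603-28800621 with its first base 52 bases before the start. The 250 bases upstream of that RefSeq start, at chr22:28800570-28800819 on the minus strand, are shown because XBP1 mRNA is itself a readout of the pathway, with the ERSE in capitals.
XBP1 promoter: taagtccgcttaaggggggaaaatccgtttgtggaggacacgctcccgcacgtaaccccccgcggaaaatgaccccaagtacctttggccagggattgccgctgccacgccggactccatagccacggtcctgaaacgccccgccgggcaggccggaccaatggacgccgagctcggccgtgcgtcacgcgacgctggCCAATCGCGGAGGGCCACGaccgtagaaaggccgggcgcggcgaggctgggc
The promoter of CREB3L2 held a CRE (1.848% of promoters) at chr7:138002258-138002265, and no other match was found in the members. Matches also stand in the promoters of some of the ER chaperone and degradation genes that ATF6 and XBP1 are known to drive. Examples are shown here with 10 bases on either side and the motif in capitals, to be set beside the site in XBP1.
XBP1 ERSE: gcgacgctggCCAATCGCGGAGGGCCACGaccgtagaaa
HSPA5 ERSE: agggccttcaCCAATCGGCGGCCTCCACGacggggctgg
HSP90B1 ERSE: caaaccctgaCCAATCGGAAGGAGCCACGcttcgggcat
HERPUD1 ERSE-II: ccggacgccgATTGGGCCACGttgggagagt
These lie at chr9:125241391-125241409 for HSPA5, chr12:103930216-103930234 for HSP90B1, which holds another ERSE on the opposite strand, and chr16:56932025-56932035 for HERPUD1. Of the 14 genes in a list of ATF6 targets that had a promoter in the table, 5 held an ERSE and 3 an ERSE-II, against 0.092% and 0.070% of all 27305 genes. Of 25 XBP1 targets with a promoter, 2 held an ERSE and 0 an ERSE-II, and of 4 CREB3 family targets 0 and 1. A UPRE (0.927% of all genes) stood in 1, 3 and 2 genes of the ATF6, XBP1 and CREB3 family lists. The lists are of known targets, so these counts describe them and are not a test. A match describes the letters only and is not a binding site.

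The libraries held 23414935 to 38347050 counts in genes. ISL1, which encodes Islet1, had 66.1, 62.4 and 68.6 CPM (counts relative to the library total, scaled by the TMM method) in control GFP-positive libraries and 2.41 to 2.79 in control GFP-negative libraries, so the sort separated the cells by the labelled marker. In treated cells ISL1 was at 8.01 to 15.3 CPM in the GFP-positive and 0.388 to 0.691 CPM in the GFP-negative libraries. The summed level of 10 motor neuron markers was 1791 to 2009 CPM in control and 543 to 731 CPM in treated GFP-positive cells, and 339 to 410 CPM in control and 126 to 170 CPM in treated GFP-negative cells, with none of the 10 at the floor of 3 counts throughout a group. With treatment, 0 of the 10 had a positive log2 fold change in GFP-positive cells and 2 did in GFP-negative cells. By edgeR at an adjusted p under 0.05 and a fold of at least 2, 7 were lower in GFP-positive cells (11.2% of all genes were). In GFP-negative cells 6 were (9.75% of all genes). Summed neural progenitor markers (9 genes, HES5 at the floor) lay at 1815 to 2058, 1161 to 1348, 2684 to 4204 and 1311 to 1770 CPM in control GFP-positive, treated GFP-positive, control GFP-negative and treated GFP-negative cells. Most of this sum was NES, with means of 1498, 1051, 2632 and 1119 CPM in the same order. Of the 8 tested, 3 had a positive change with treatment in GFP-positive cells. PAX6 was among them, from 7.93 ± 1.84 to 30.4 ± 3.78 CPM (SD, n = 3 each). In the same order, mesenchymal markers (8 genes, LUM at the floor in treated GFP-positive cells) lay at 261 to 326, 50.5 to 82.0, 761 to 886 and 468 to 761 CPM, and cycling cell markers (5 genes) at 61.0 to 92.1, 31.7 to 35.4, 499 to 639 and 150 to 207 CPM. Most of the mesenchymal sum was the collagen genes COL1A1 (means of 89.3, 22.6, 598 and 281 CPM) and COL1A2 (185, 43.5, 193 and 300 CPM). Interneuron markers (9 genes) lay at 8.02 to 8.99, 2.38 to 2.94, 29.8 to 34.3 and 7.93 to 10.8 CPM in sum. SIM1 was at the floor in every group, EN1 in control and GAD2, SLC6A5 and PAX2 in treated GFP-positive cells. Astroglia markers (6 genes) lay at 18.5 to 26.1, 28.7 to 32.9, 23.9 to 32.9 and 18.9 to 24.1 CPM. AQP4 was at the floor in every group, GFAP in control and S100B in treated GFP-positive cells. The 5 pluripotent cell markers lay at 155 to 170, 49.2 to 60.6, 219.8 to 258 and 112 to 154 CPM in the same order of groups. Of these, POU5F1, NANOG and PRDM14 were at the floor in every group, and the sum came from LIN28A (155 ± 7.46 CPM in control GFP-positive and 184 ± 19.1 CPM in control GFP-negative cells, SD, n = 3) and DPPA4 (6.80 ± 1.02 and 54.0 ± 4.55 CPM). In bulk RNA, a change in the number of cells of a type and a change in RNA per cell cannot be told apart, and the part of these shifts in the results that follow was not tested.

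Treatment raised most of the sensor genes in both fractions. A gene was called where the quasi-likelihood test of edgeR gave an adjusted p under 0.05 over all genes by the Benjamini-Hochberg method and the fold change was at least 2. In GFP-positive cells 6 of the 10 genes were called higher, where 12.8% of the 15333 genes tested were called higher and 11.2% lower. These were ERN1, XBP1, ATF6, CREB3, CREB3L1 and CREB3L2, and the same 6 had every treated library above every control library (26.9% of all genes did). CREB3L4 had every treated library below the controls (30.6% of all genes did) but did not pass the test. In GFP-negative cells 6 genes were again called higher, where 8.59% of 15513 genes were called higher and 9.75% lower, with ATF6B in place of CREB3L1. Without the minimum fold, 8 were higher in GFP-negative cells (15.3% of all genes), and the same 8 did not overlap between groups (24.0%). Without treated GFP-negative replicate 2, 5 genes passed in place of 8. The median log2 fold change of the 10 genes was 1.08 in GFP-positive and 1.35 in GFP-negative cells, while the median of all genes was 0.03 and -0.01. The test of the difference between the 2 fractions called 0 of the 10 genes by edgeR and 0 by DESeq2, where 2.19% of 16226 genes were called by edgeR. At an unadjusted p under 0.05 there were 3 of the 10, where 16.6% of all genes passed. The same-numbered fractions are sorts of 1 culture, which the test above did not model. With the culture as a block edgeR called 1 of the 10, CREB3. By the sign of the difference (GFP-positive minus GFP-negative log2 fold change), it then called 519 of all 16226 genes above 0 and 745 below. Without the block 157 genes were above 0 and 198 below. These counts were 266 and 84 by library size alone, 233 and 105 with at least 10 counts in every library and 157 and 456 with a trend with GC content removed.

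**Figure D1:**
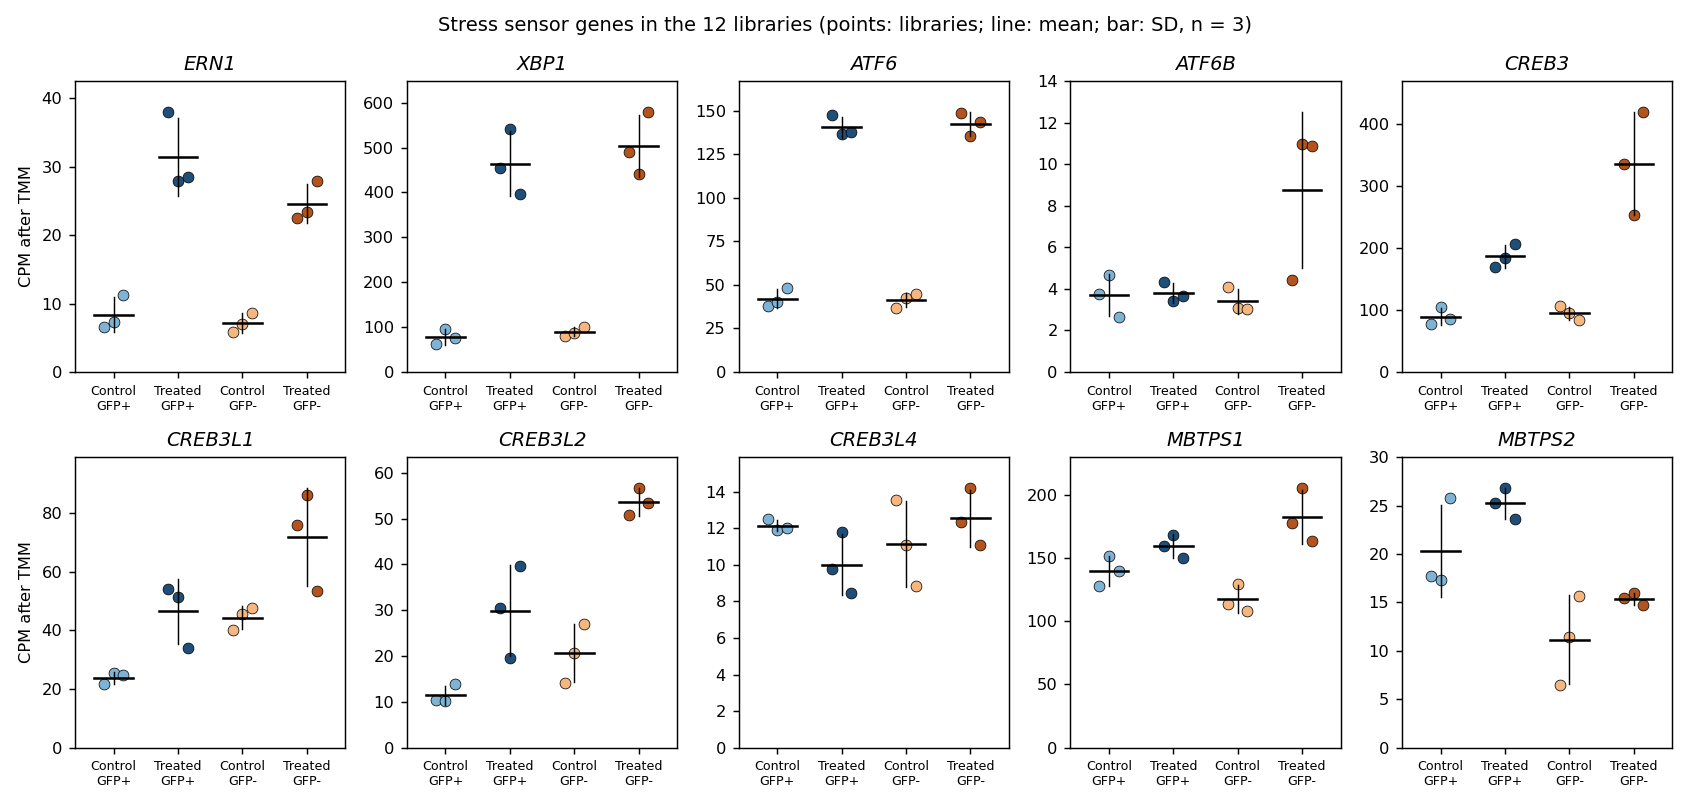
CPM after TMM scaling (vertical axes, linear, each from 0) of the 10 sensor genes in the 12 libraries, with points for libraries, a horizontal line for the mean and a bar for the SD of 3 libraries. The treated libraries stand apart from the controls in both fractions for ERN1, XBP1, ATF6, CREB3, CREB3L1 and CREB3L2, and those of MBTPS2 overlap with the controls in both.

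In the IRE1 arm, XBP1 had the highest fold change of the 10 genes in both fractions. It had 62.0, 96.6 and 75.5 CPM in control and 455, 540 and 396 CPM in treated GFP-positive libraries, and 81.0, 88.0 and 101 CPM in control and 489, 441 and 579 CPM in treated GFP-negative libraries. Every treated library lay above the highest control library, and the treated libraries of the fractions overlapped. The log2 fold change was 2.64 (standard error 0.18, edgeR adjusted p = 2.1e-14) in GFP-positive and 2.46 (standard error 0.17, adjusted p = 2.1e-05) in GFP-negative cells, or 6.23-fold and 5.51-fold. ERN1, the sensor itself (minus strand, chr17:64039080-64130819), was scarce. It had 6.56, 7.36 and 11.3 CPM in control and 37.99, 27.9 and 28.5 CPM in treated GFP-positive libraries, and 5.85, 6.96 and 8.66 CPM in control and 22.6, 23.4 and 27.9 CPM in treated GFP-negative libraries. The groups did not overlap in either fraction, and ERN1 rose by a log2 fold change of 1.97 (standard error 0.21) in GFP-positive and 1.76 (standard error 0.21) in GFP-negative cells, with edgeR adjusted p = 1.6e-09 and 0.00036. The response differed between fractions by 0.12 (standard error 0.32, adjusted p = 0.89) for ERN1 and 0.09 (standard error 0.25, adjusted p = 0.90) for XBP1 on the log2 scale. Small unnamed genes on the opposite strand share 2.26% and 2.36% of the exon bases of ERN1, and the strand setting of the counting was not given in the sources used here. ERN2, the second IRE1 gene, which is known from gut epithelium, had 6 to 22 counts per library and no detectable response, with log2 fold changes of -0.53 (standard error 0.53) and 0.14 (standard error 0.57).

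ATF6 (plus strand, chr1:161766298-161977574) encodes the sensor whose freed fragment drives ER chaperone genes. It had 37.8, 40.3 and 48.2 CPM in control and 147, 137 and 138 CPM in treated GFP-positive libraries, and 36.9, 42.2 and 44.5 CPM in control and 149, 135 and 144 CPM in treated GFP-negative libraries. The treated libraries lay far above the controls, and at each condition the fractions overlapped. The log2 fold change was 1.81 (standard error 0.17, edgeR adjusted p = 3.7e-11) and 1.77 (standard error 0.15, adjusted p = 6.0e-05), and the difference between fractions was -0.05 (standard error 0.20). Its paralogue ATF6B (minus strand, chr6:32115264-32128253), described as a weaker activator, behaved otherwise. ATF6B had 3.77, 4.66 and 2.66 CPM in control and 4.35, 3.41 and 3.65 CPM in treated GFP-positive libraries, which overlapped, and the log2 fold change was 0.11 (standard error 0.27, edgeR adjusted p = 0.77). In GFP-negative cells it had 4.11, 3.08 and 3.03 CPM in control and 4.45, 11.0 and 10.9 CPM in treated libraries. There, replicate 1 of the treated libraries lay just above the controls and the other replicates far above, and the log2 fold change was 1.34 (standard error 0.36, edgeR adjusted p = 0.019). The call in GFP-negative cells was lost without control replicate 2 (log2 1.27, adjusted p = 0.080), treated replicate 2 (1.15, adjusted p = 0.072) or treated replicate 3 (1.16, adjusted p = 0.088), each from edgeR, and the adjusted p ranged from 0.0016 to 0.088 over 14 alternatives. The difference between fractions, -1.32 (standard error 0.46), did not pass the test (adjusted p = 0.15). ATF6B lies in the major histocompatibility region, where 17 of the 22 protein-coding genes within 250 kb had a mean under 1 CPM, or 77.3% against 32.9% of all protein-coding genes, so its level is uncertain, and the cause was not tested.

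Of the CREB3 family, 3 of the 4 genes rose in at least 1 fraction. CREB3 (plus strand, chr9:35732598-35736999), the founder of the family, had 77.9, 105 and 85.6 CPM in control and 169, 184 and 207 CPM in treated GFP-positive libraries. In GFP-negative cells it had 106, 94.7 and 84.3 CPM in control and 335, 254 and 420 CPM in treated libraries. The control levels overlapped, and every treated GFP-negative library lay above every treated GFP-positive library. The log2 fold change was 1.13 (standard error 0.16, edgeR adjusted p = 5.8e-07) in GFP-positive and 1.80 (standard error 0.20, adjusted p = 0.00025) in GFP-negative cells. The difference of -0.76 (standard error 0.26) did not pass the edgeR test (adjusted p = 0.14), which did not model that the fractions were sorted from shared cultures. A fit that took each culture as a block, and so modelled it, gave -0.73 (standard error 0.21, edgeR adjusted p = 0.046). The other alternatives, none with this block, did not call it (adjusted p from 0.046 to 0.41 over all 19). Of the exon bases of CREB3, 8.2% overlap GBA2 on the opposite strand.

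CREB3L1 (plus strand, chr11:46277662-46321409), also called OASIS and known from bone and astrocytes, had 21.6, 25.4 and 24.8 CPM in control and 53.9, 51.5 and 33.9 CPM in treated GFP-positive libraries, and 40.1, 45.4 and 47.5 CPM in control and 76.0, 86.0 and 53.4 CPM in treated GFP-negative libraries. All treated libraries lay above their controls, with replicate 3 the lowest treated library in both fractions. The log2 fold change was 1.02 (standard error 0.19, edgeR adjusted p = 2.6e-05) in GFP-positive cells and 0.68 (standard error 0.20, adjusted p = 0.028) in GFP-negative cells, the latter under the minimum fold. In GFP-positive cells the value sat at the fold limit: the adjusted p stayed under 0.05 in 14 of 14 alternatives, but the fold reached 2 in 7 of them, and it fell short at log2 0.96, 0.90 and 0.93 without control replicate 1, treated replicate 1 and treated replicate 2. In GFP-negative cells the adjusted p was under 0.05 in 9 of 14 alternatives.

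CREB3L2 (minus strand, chr7:137874979-138002086), which in cartilage is known to drive the COPII coat gene SEC23A, rose in both fractions. It had 10.3, 10.2 and 13.8 CPM in control and 30.5, 19.6 and 39.7 CPM in treated GFP-positive libraries, and 14.2, 20.7 and 26.9 CPM in control and 50.8, 56.7 and 53.5 CPM in treated GFP-negative libraries. The groups did not overlap, and the treated GFP-positive libraries varied more than the treated GFP-negative ones. The log2 fold change was 1.45 (standard error 0.22, edgeR adjusted p = 1.0e-06) and 1.36 (standard error 0.23, adjusted p = 0.0020). CREB3L4 (plus strand, chr1:153967534-153974361), known from prostate and other secretory epithelia, had 12.5, 11.9 and 12.0 CPM in control and 9.75, 11.8 and 8.47 CPM in treated GFP-positive libraries, a log2 fold change of -0.21 (standard error 0.20, edgeR adjusted p = 0.40). The treated libraries lay below the controls by less than the test could resolve. In GFP-negative cells CREB3L4 had 8.82 to 13.5 CPM in control and 11.1 to 14.2 CPM in treated libraries, a log2 fold change of 0.15 (standard error 0.23, edgeR adjusted p = 0.65). SLC39A1 and JTB on the opposite strand overlap 9.65% and 3.21% of its exon bases. CREB3L3, the liver member of the family, had 0 to 5 counts per library and was not tested.

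The proteases were not called in either fraction. MBTPS1 (minus strand, chr16:84053761-84116942), which makes the first cut in ATF6, had 128, 152 and 140 CPM in control and 160, 168 and 150 CPM in treated GFP-positive libraries, a log2 fold change of 0.26 (standard error 0.16, edgeR adjusted p = 0.17). In GFP-negative cells it had 114, 130 and 108 CPM in control and 178, 205 and 163 CPM in treated libraries, which did not overlap. The log2 fold change there was 0.61 (standard error 0.16, edgeR adjusted p = 0.015), under the minimum fold, and the adjusted p was 0.061 without treated replicate 1 and 0.055 without treated replicate 2 (0.0022 to 0.061 over 14 alternatives). MBTPS2 (plus strand, chrX:21839617-21885423), which makes the second cut inside the membrane, had 17.7, 17.3 and 25.8 CPM in control and 25.3, 26.8 and 23.6 CPM in treated GFP-positive libraries. In GFP-negative cells it had 6.44, 11.4 and 15.6 CPM in control and 15.5, 15.9 and 14.7 CPM in treated libraries. Both pairs of groups overlapped, and the log2 fold changes of 0.38 (standard error 0.19, edgeR adjusted p = 0.096) and 0.44 (standard error 0.29, adjusted p = 0.28) did not pass the test. Without control replicate 3 of the same fraction they were 0.58 and 0.76, with edgeR adjusted p = 0.021 and 0.045. With a trend with GC content removed, the value in GFP-positive cells turned to -0.29 (adjusted p = 0.17). YY2 on the same strand shares 12.2% of the exon bases of MBTPS2.

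**Figure D2:**
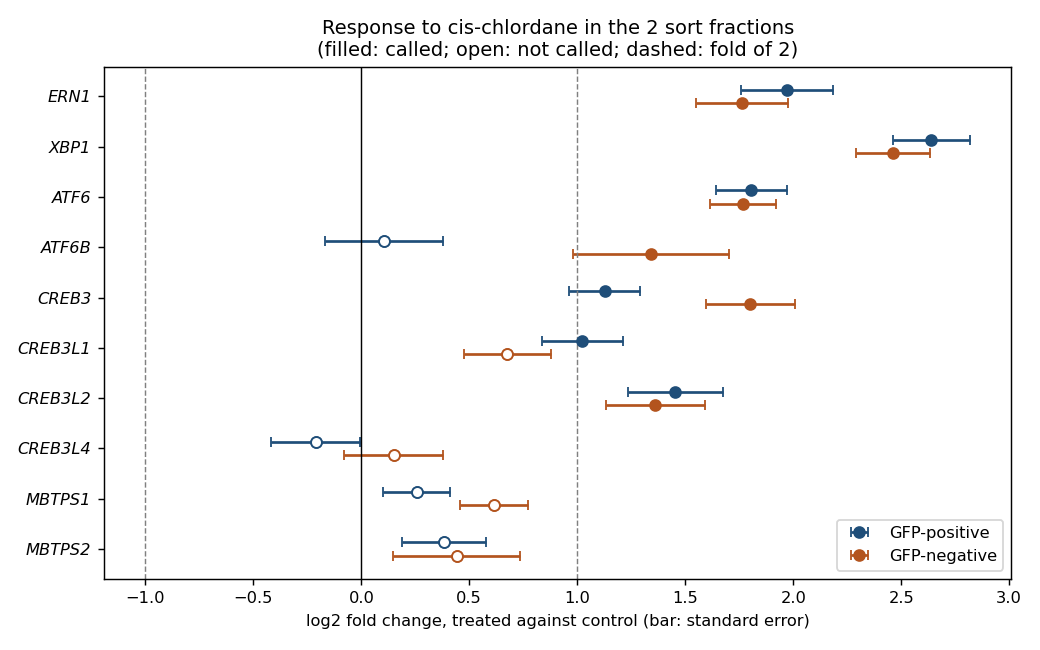
Log2 fold change of treated against control (horizontal axis) for each sensor gene in GFP-positive (blue) and GFP-negative (brown) cells, with bars for the standard error, filled points for called genes and dashed lines at a fold of 2. XBP1 lies farthest right in both fractions at 2.64 and 2.46, and ATF6B and CREB3 show the widest gaps between the fractions.

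Without treatment, the fractions were set against each other to see whether motor neurons start from another supply of sensors. Of the 10 genes, 0 were called at a fold of 2 by edgeR and 0 by DESeq2, where 7.47% of 15404 genes were called higher and 15.3% lower in GFP-positive cells by edgeR. At an unadjusted p under 0.05 there were 3 of the 10, where 49.0% of all genes passed. Without the minimum fold, CREB3L1 and CREB3L2 were lower (23.1% of all genes were), by log2 fold changes of -0.997 (standard error 0.16, edgeR adjusted p = 0.00092) and -0.96 (standard error 0.26, adjusted p = 0.015). The 3 control GFP-positive libraries lay below all 3 control GFP-negative libraries for both genes (24.1% of all genes did). CREB3L1 lay at the fold limit and reached it without control GFP-negative replicate 1 (-1.07), control GFP-positive replicate 2 (-1.01) or control GFP-positive replicate 3 (-1.02). CREB3L2 reached it without control GFP-negative replicate 1 (-1.17) or control GFP-positive replicate 3 (-1.11), and its edgeR adjusted p was 0.068 without control GFP-positive replicate 1 and 0.077 without control GFP-positive replicate 2. MBTPS2 was higher in every GFP-positive control (29.1% of all genes were), but its log2 fold change of 0.75 (standard error 0.32) missed the threshold (edgeR adjusted p = 0.084), and with each culture as a block it was 0.81 (standard error 0.20, adjusted p = 0.0063, with 0.0020 to 0.28 over 14 alternatives). Without control GFP-negative replicate 3 it was 1.10 and called. The mesenchymal and cycling cell markers given above were also lower in sum in GFP-positive controls. In the mesenchymal sum, COL1A1 had 89.3 ± 16.2 against 598 ± 50.9 CPM (SD, n = 3 each), whereas COL1A2 (185 ± 17.5 and 193 ± 19.2 CPM) overlapped. By edgeR, 4 of the 6 mesenchymal markers tested were called lower (15.3% of all genes were). The part of these markers in the lower CREB3L1 and CREB3L2 was not tested.

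In treated cells 1 of the 10 genes, ATF6B, was called lower in GFP-positive than in GFP-negative cells, where 10.0% of 15416 genes were called higher and 13.7% lower. These are 1541 and 2117 genes, against 2230 and 1770 scaled by library size alone and 890 and 2460 with the GC trend removed. Its log2 fold change was -1.18 (standard error 0.31, edgeR adjusted p = 0.0072), and -0.97 without treated GFP-negative replicate 2, which is under the fold of 2. Without the minimum fold, CREB3 (-0.82, standard error 0.17, edgeR adjusted p = 0.0019), CREB3L2 (-0.82, standard error 0.22, adjusted p = 0.0084) and CREB3L1 (-0.61, standard error 0.22, adjusted p = 0.033) were also lower and MBTPS2 was higher (0.74, standard error 0.17, adjusted p = 0.0028), where 24.9% of all genes were lower and 24.9% higher. That of CREB3L2 reached the fold of 2 without treated GFP-positive replicate 3 (-1.10). The adjusted p of CREB3L1 was 0.097 without treated GFP-negative replicate 1, 0.12 without treated GFP-negative replicate 2 and 0.097 without treated GFP-positive replicate 3, and that of MBTPS2 was 0.33 with the GC trend removed, each from edgeR. ERN1 was higher by 0.38 (standard error 0.18) and missed the threshold (edgeR adjusted p = 0.096), and with each culture as a block it was 0.37 (standard error 0.16, adjusted p = 0.043, with 0.024 to 0.45 over 14 alternatives). XBP1 and ATF6 differed by -0.09 (standard error 0.15) and 0.00 (standard error 0.13), and by -0.49 and -0.41 with the GC trend removed (edgeR adjusted p = 0.044 and 0.022, against 0.044 to 0.99 and 0.022 to 0.99 over 14 alternatives).

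Levels were compared between genes as CPM per kilobase of exon, counting all exon bases of a gene. With the length of the longest transcript in its place the levels were 1.09 (CREB3) to 2.35 (MBTPS1) times as high, and 2.12 times as high for ERN1. In control GFP-positive cells the order was CREB3 (54.8 ± 8.64, SD, n = 3), XBP1 (25.8 ± 5.76), MBTPS1 (13.6 ± 1.16), CREB3L1 (5.95 ± 0.507), CREB3L4 (4.18 ± 0.105), ATF6 (2.95 ± 0.382), MBTPS2 (2.27 ± 0.531), CREB3L2 (1.30 ± 0.233), ATF6B (1.02 ± 0.277) and ERN1 (0.438 ± 0.131). Only ATF6 and MBTPS2, and CREB3L2 and ATF6B, overlapped with their neighbour in this order. In treated GFP-positive cells XBP1 was first at 153 ± 24.0 and CREB3 next at 114 ± 11.6, without overlap, and ATF6B was last at 1.05 ± 0.135, below ERN1 at 1.64 ± 0.296. There CREB3L1 overlapped with ATF6, CREB3L4 with CREB3L2 and CREB3L2 with MBTPS2. In control GFP-negative cells CREB3 (58.1 ± 6.62) and XBP1 (29.7 ± 3.39) were again first and ERN1 (0.374 ± 0.0741) last, and every pair of neighbours from CREB3L4 (3.84 ± 0.812) down to ATF6B (0.939 ± 0.167) overlapped, as did MBTPS1 (11.4 ± 1.09) and CREB3L1 (11.0 ± 0.955). In treated GFP-negative cells CREB3 (206 ± 50.7) and XBP1 (166 ± 23.02) overlapped and their order turned when the longest transcript was used as the length, as did that of CREB3L1 and MBTPS1 and of ATF6B and MBTPS2 in treated GFP-negative cells, and of CREB3L1 and ATF6 and of CREB3L2 and MBTPS2 in treated GFP-positive cells. ERN1 had the lowest mean of the 10 in treated GFP-negative cells too, at 1.29 ± 0.150. Its libraries (1.18 to 1.46) overlapped with ATF6B, which was at 1.23 in replicate 1.

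**Figure D3:**
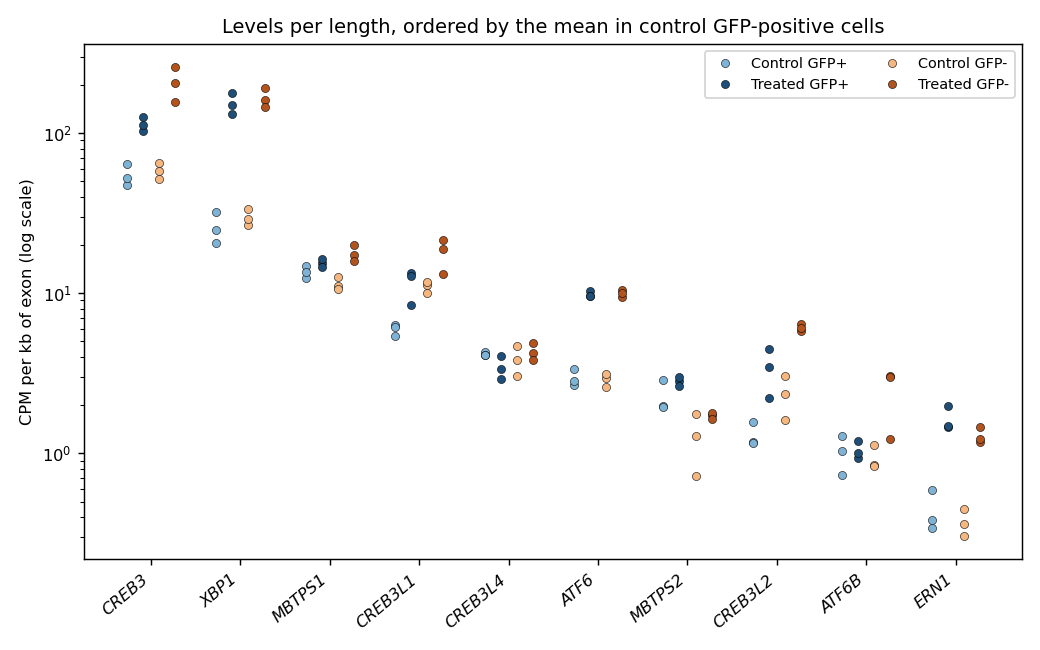
CPM per kilobase of exon (vertical axis, log scale) of the 10 sensor genes, ordered by their mean in control GFP-positive cells, with 1 point per library and a colour per group. CREB3 and XBP1 lie above all others in each of the 4 groups, and ERN1 has the lowest mean in 3 of them.

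Genes around the sensors were followed in 5 lists, of which the targets lists share some genes with each other. The counts called in each list stand against the shares of all genes tested. These were 12.8% higher and 11.2% lower in GFP-positive cells, and 8.59% higher and 9.75% lower in GFP-negative cells. In GFP-positive cells 21 of 28 XBP1 targets were called higher and the rest were not called, with a median log2 fold change of 1.74. In GFP-negative cells 19 of 28 were called higher and the rest were not called, with a median of 1.57. SEC24D, a subunit of the COPII coat that carries proteins out of the ER, rose from 6.93 ± 1.53 to 106 ± 38.3 CPM (SD, n = 3 each) in GFP-positive and from 11.5 ± 3.23 to 127 ± 20.3 CPM in GFP-negative cells, log2 fold changes of 4.004 (standard error 0.23) and 3.44 (standard error 0.24). DNAJC3, a co-chaperone of the ER, had log2 fold changes of 2.84 (standard error 0.23) and 1.56 (standard error 0.21). TRAM1, a partner of the translocation channel, had 2.43 (standard error 0.22) and 2.02 (standard error 0.29). These 3 were picked for their call and large change in GFP-positive cells, and all 3 were called in GFP-negative cells too.

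Of 15 ATF6 targets tested, 13 were called higher in GFP-positive cells (median 1.46) and 11 in GFP-negative cells (median 1.36), and the rest were not called. HSPA5, the ER chaperone BiP that also holds IRE1 and ATF6 inactive, had 319 ± 34.7 CPM (SD, n = 3) in control and 3179 ± 419 CPM in treated GFP-positive cells, and 512 ± 87.8 CPM in control and 6039 ± 618 CPM in treated GFP-negative cells. By the edgeR fit of each fraction, rather than by these means, the rise was 10.4-fold and 11.6-fold. HERPUD1, an adaptor of ER-associated degradation, had log2 fold changes of 2.95 (standard error 0.17) and 3.24 (standard error 0.20). HSP90B1, the ER chaperone GRP94, had 2.69 (standard error 0.17) and 2.04 (standard error 0.19). These are the genes whose ERSE and ERSE-II sites are printed above.

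Of the 19 partners and controllers of IRE1, 7 were called higher in GFP-positive cells (median 0.64) and 6 in GFP-negative cells (median 0.45), and the rest were not called. HSPA5, already described, led this list too. MAP3K5, a kinase downstream of IRE1 in the JNK pathway, rose from 0.340 ± 0.219 to 2.07 ± 0.257 CPM (SD, n = 3 each) in GFP-positive cells, which is 2.67 (standard error 0.43) as a log2 fold change. Its controls held 5 to 18 counts per library against 67 to 79 in treated libraries, so it was tested there through the treated group and was left out when 10 counts were required in every library. In GFP-negative cells it had 0.328 to 2.43 CPM in control and 0.981 to 1.73 CPM in treated libraries, a log2 fold change of 0.20 (standard error 0.63) that did not pass the test, and the difference between fractions did not pass it either (edgeR adjusted p = 0.17). SEC63, a translocon subunit, had 2.09 (standard error 0.17) and 1.59 (standard error 0.16).

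Of 10 targets of the CREB3 family, 8 were called higher and 2 lower in GFP-positive cells (median 2.00), and 8 higher and 1 lower in GFP-negative cells (median 1.76). SEC24D and HERPUD1 belong to this list as well. KDELR3, a receptor that returns proteins from the Golgi to the ER, rose from 0.341 ± 0.210 to 5.70 ± 1.51 CPM (SD, n = 3 each) in GFP-positive and from 4.65 ± 0.576 to 30.3 ± 8.12 CPM in GFP-negative cells. In GFP-positive cells it too was tested through the treated group, with 5 to 20 counts per control library and 163 to 281 per treated library. The genes that fell were collagen chains, named after their values were seen: COL1A1 in both fractions, with log2 fold changes of -1.91 (standard error 0.19) and -1.11 (standard error 0.26), and COL1A2 in GFP-positive cells, with -2.02 (standard error 0.18). Both collagen genes are also among the mesenchymal markers whose sums are given above. The fall of COL1A1 in GFP-negative cells was no longer called without treated replicate 1 (-1.03, edgeR adjusted p = 0.058) or treated replicate 3 (-0.90, adjusted p = 0.034).

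The site-1 and site-2 proteases also cut the sterol regulators, so 7 other substrates and their controllers were tested. In GFP-positive cells 1 was called higher and 2 lower (median -0.44), and in GFP-negative cells 1 was called higher and 1 lower (median -0.08). Over all genes, 12.8% were called higher and 11.2% lower in GFP-positive cells, and 8.59% and 9.75% in GFP-negative cells. Counts of 1 or 2 among 7 genes are too small to set the list apart from these shares. INSIG1, which holds sterol regulators in the ER and is itself one of their targets, fell in both fractions, from 74.3 ± 10.4 to 19.1 ± 2.19 CPM (SD, n = 3 each) in GFP-positive and from 44.2 ± 4.18 to 19.7 ± 6.42 CPM in GFP-negative cells. SREBF1, a sterol regulator, had log2 fold changes of -1.74 (standard error 0.18) and -0.88 (standard error 0.16), the latter under the minimum fold. INSIG2, named after its values were seen, rose with log2 fold changes of 1.32 (standard error 0.21) and 1.77 (standard error 0.30). With the trend with GC content removed, that of INSIG2 in GFP-positive cells was 0.63 and no longer reached the fold of 2.

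**Figure D4:**
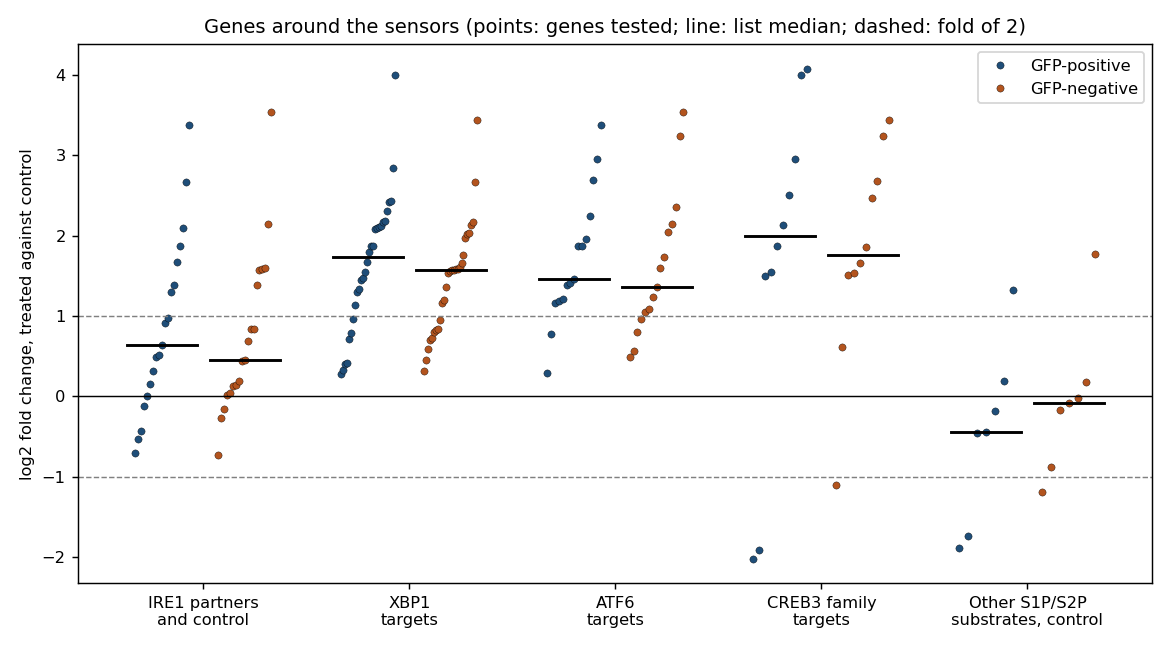
Log2 fold change of treated against control (vertical axis) for each gene tested in 5 lists around the sensors, in GFP-positive (blue) and GFP-negative (brown) cells, with a line at each list's median and dashed lines at a fold of 2. The medians of the XBP1, ATF6 and CREB3 family targets lie between 1.36 and 2.00, and those of the other protease substrates lie at -0.44 and -0.08.

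As a description of pattern, the genes most alike to each sensor were found among 13803 genes by Pearson's r over the 12 libraries, which share treatment groups and cultures. The nearest to XBP1 was IARS1 (r = 0.989), which was also nearest to ATF6 (0.995). The nearest to ERN1 was SEC22B (0.985), to CREB3 STX5 (0.991), to CREB3L2 BHLHE41 (0.984), to MBTPS2 PPIP5K2 (0.987), to MBTPS1 BCL2L13 (0.971) and to CREB3L1 CSRNP1 (0.971). CREB3L4 and ATF6B had no gene above 0.916 and 0.901.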

How the data were processed

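RNA-seq counts of 12 libraries, 3 in each of 4 groups, were analysed, with treatment, sort fraction and replicate number read from the sample titles. All titles open with the word untreated, but the later word control or treated matches the treatment field in every sample. Lanes were concatenated by the authors, who mapped reads to hg38 with HISAT2 and, per the submitters' processing notes, counted them with featureCounts. The deposited values are raw counts per gene, without normalization. Of the per-sample columns, 0 were left unused. The members and lists were chosen with earlier results of these data known.

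Counts were tested with edgeR 4.0.16 (TMM, filterByExpr with a minimum count of 10 and a minimum total of 15, quasi-likelihood F-test, Benjamini-Hochberg adjustment over all genes). The threshold for a call was an adjusted p of 0.05 together with a fold of at least 2, with no minimum fold for the interaction. CPM were scaled over all 12 libraries. No exact permutation test was run, since 3 against 3 libraries cannot give a p under 0.1. Named genes outside the members are, per list, up to 3 genes called for treatment in GFP-positive cells. They are those that moved most there toward the side of the list median, provided that the groups did not overlap and the mean CPM reached 1. Alternatives were DESeq2 1.42.0, RLE scaling, library size alone, other filters, a replicate block, all libraries in 1 fit, each library left out, and, chosen after seeing the data, removal of a GC trend by loess with a span of 0.5. Lengths came from GENCODE release 44, and the authors' own annotation may differ. Scripts were tested on simulated data.

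Same-numbered GFP-positive and GFP-negative libraries of 1 treatment were sorts of 1 culture. The main tests between fractions and of the interaction did not model this pairing, and the culture block did. Over 16226 genes, the departures of such pairs from their group means had r = 0.385, 0.118 and 0.328 (controls) and 0.200, 0.241 and 0.476 (treated).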

Additional observations from a re-analysis of the deposited data

Results flagged for a closer look

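COL1A2, a collagen chain in the list of CREB3 family targets, responded differently in the 2 sort fractions by the interaction test. Its log2 fold change was -2.02 (standard error 0.18) in GFP-positive cells, from 185 ± 17.5 to 43.5 ± 9.71 CPM (SD, n = 3 each). In GFP-negative cells it was 0.62 (standard error 0.16, edgeR adjusted p = 0.014), from 193 ± 19.2 to 300.2 ± 29.8 CPM. The difference of -2.73 (standard error 0.24, edgeR's quasi-likelihood test, adjusted p = 4.0e-05) was called in 19 of 19 alternatives, between -3.01 and -2.40.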

How the results depend on the processing

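Over 14 alternatives each, the 10 sensor genes kept direction and call in 130 of 140 values for treatment in GFP-positive cells and 136 of 140 in GFP-negative cells. ERN1, XBP1, ATF6, CREB3 and CREB3L2 were called in all 14 in both fractions. CREB3L1 in GFP-positive cells fell just short of the fold of 2 with DESeq2, RLE scaling and the replicate block (1.00 each) and with all libraries in 1 fit (0.96). Across treatments the labels give a replicate number and do not say whether same-numbered libraries came from 1 thaw. Their deviations correlated at -0.039, 0.162 and 0.203 in GFP-positive and -0.031, 0.299 and -0.019 in GFP-negative cells, and not every library correlated best with its own number. The replicate block there gave 1944 genes higher and 1708 lower in GFP-positive cells and took the call from ATF6B in GFP-negative cells (1.26, edgeR adjusted p = 0.053). The culture block changed no other member's call than those given above. Scaling by library size alone moved the median of all genes from 0.03 to 0.14 (log2) for treatment in GFP-positive cells, from 0.05 to 0.22 between treated fractions and from -0.05 to 0.20 for the interaction, and removing the GC trend moved them to -0.12, -0.17 and -0.24.

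Counts of genes called for the interaction, 157 above 0 and 198 below 0 (GFP-positive minus GFP-negative), moved to 407 and 391 with DESeq2, 266 and 84 by library size alone, 519 and 745 with the culture block (where 1 member, CREB3, was called), 105 below 0 with at least 10 counts in every library and 456 below 0 with the GC trend removed, and ranged from 68 to 212 and from 47 to 202 with 1 library left out. The cause was not tested. Between fractions, 890 genes were higher and 2 members lower in treated cells with the GC trend removed, and 1 member was lower in controls with at least 10 counts in every library. With 1 library left out, members called ranged from 0 to 1 higher and 0 to 2 lower in controls and from 0 to 2 lower in treated cells, and members with an adjusted p under 0.05 from 1 to 3 in controls and from 5 to 9 for treatment in GFP-negative cells.

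Values near 0 changed sign. Between control fractions ATF6B was -0.0037 with at least 10 counts in every library and -0.0053 with the culture block, and ATF6 was 0.0301 with all libraries in 1 fit. Between treated fractions ATF6 was -0.0131 with DESeq2, -0.0193 with RLE scaling and in 1 fit, -0.0022 with at least 10 counts and -0.4077 with the GC trend removed (edgeR adjusted p = 0.022), and XBP1 was 0.0758 by library size alone. For the interaction ATF6 was 0.0133 with DESeq2 and RLE scaling, 0.2124 by library size alone and 0.1119 with at least 10 counts, MBTPS2 was 0.1227 and 0.0144 in the latter settings, CREB3L2 was -0.0084 without a filter, -0.0745 with the culture block and -0.182 with the GC trend removed, which also gave ERN1 -0.0133 and XBP1 -0.2439. MBTPS2 for treatment in GFP-positive cells was -0.29 with the GC trend removed. With 1 library left out the ranges across 0 were -0.0919 to 0.3064 for ATF6B in GFP-positive cells and -0.2444 to 1.3157 for MAP3K5 in GFP-negative cells. Between control fractions they were -0.1443 to 0.3082 for ERN1, -0.1817 to 0.0063 for ATF6, -0.1592 to 0.2071 for ATF6B and -0.1019 to 0.1749 for CREB3L4. Between treated fractions they were -0.2448 to 0.0036 for XBP1 and -0.0554 to 0.0366 for ATF6. For the interaction they were -0.0365 to 0.3889 for ERN1, -0.0518 to 0.3602 for XBP1, -0.1223 to 0.1269 for ATF6, -0.2335 to 0.2406 for CREB3L2 and -0.4653 to 0.1611 for MBTPS2. MAP3K5 and KDELR3 had no value in GFP-positive cells with at least 10 counts in every library.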
